A study of Mus musculus with 9 samples.

Results

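The 10 genes described here encode the cytokine tumour necrosis factor (Tnf) and the NF-kappaB subunits Nfkb1, Nfkb2, Rela and Relb. The others encode the inhibitors Nfkbia and Nfkbie, their nuclear family member Nfkbiz, and the regulators Tnfaip3 and Birc3. All 10 genes were chosen by name, and each was found in the deposited table, which holds 27203 gene IDs. Whole-lung total RNA was sequenced from male C57BL/6 mice aged 6 to 8 weeks, with 3 libraries per group and 1 mouse per library. Control mice were intubated but not connected to the ventilator. VILI (ventilator-induced lung injury) mice were ventilated for 4 hours at a high tidal volume of 20 ml/kg under ketamine and xylazine, with pancuronium as muscle relaxant, and were killed at its end (VILI 0 hours) or 6 hours later (VILI 6 hours). Intubation was common to all 9 mice. The published methods place ketamine and xylazine before intubation, and mice of every group were killed under anaesthesia. Whether the control mice received the relaxant is not given in the sources used here.

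In resting cells NF-kappaB dimers are held in the cytoplasm by IkappaB proteins. Binding of TNF to its receptors, like other inflammatory stimuli, activates the IkappaB kinase (IKK) complex, which marks IkappaB for destruction, and the freed dimers enter the nucleus. Among the genes they switch on are those for IkappaB alpha (Nfkbia), A20 (Tnfaip3) and cIAP2 (Birc3), so transcripts of these feedback genes are widely read as signs of recent NF-kappaB activity. In the lung the pathway is known for its role in cytokine production and leukocyte recruitment after infection or overstretching.

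At the end of ventilation the transcripts of Nfkbia and Birc3 were higher than in control lung, by 2.74-fold and 1.86-fold on group means. Those of the feedback gene Tnfaip3, of Tnf, Nfkbie and Nfkbiz, and of the 4 NF-kappaB subunits did not pass the test. At 6 hours Nfkbia, Birc3, Relb, Rela and Nfkbiz were higher than in control at an unadjusted P under 0.05, called here the unadjusted test. Between the VILI groups, Nfkb1, Nfkb2, Rela and Relb were higher at 6 hours than at 0 hours. None of these calls held after Benjamini-Hochberg adjustment over the 19378 genes tested, and the 6-hour values rested to a large extent on 1 library, VILI 6 hours replicate 3.

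The libraries of VILI 6 hours differed among themselves. Replicate 1 had rank correlations of 0.972 to 0.973 with the controls across genes, but only 0.963 and 0.953 with replicates 2 and 3 of its own group. Its summed erythroid markers stood at 311 FPKM, against 2090 to 2653 FPKM in control. FPKM is a fragment density scaled to transcript length and library size, and all levels given here are FPKM summed over the rows of a gene. Lung markers (Sftpc, Sftpb, Ager, Pecam1 and Scgb1a1) were detected in all 9 libraries. The 8 neutrophil markers summed to 48.5 to 56.8 FPKM in control lung, 560 to 1024 FPKM in VILI 0 hours, and 467, 994 and 1940 FPKM in VILI 6 hours replicates 1, 2 and 3. All 8 were higher than control at both times by the unadjusted test, and 6 of them at 0 hours and 8 at 6 hours after adjustment. Ly6g was the only one of the 8 listed at 0 in any library. In RNA from whole tissue, more cells of a type and more RNA per cell cannot be told apart.

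Levels of the 10 genes in control lung spanned from below 1 FPKM to about 45 FPKM. Nfkbia was highest (45.3 ± 1.09 FPKM, SD, n = 3), followed by Nfkb1 (35.1 ± 1.87), Rela (28.3 ± 1.60) and Birc3 (19.4 ± 1.54), with no overlap between neighbours in this order. Nfkbiz (13.2 ± 1.60) and Nfkb2 (11.7 ± 1.07) overlapped in range, as did Tnfaip3 (7.84 ± 0.63), Relb (5.91 ± 2.13) and Nfkbie (4.14 ± 0.64), each with the next. Tnf was lowest at 0.770 ± 0.225 FPKM. At VILI 0 hours Birc3 (36.1 ± 5.58 FPKM) stood second, with a range overlapping that of Nfkb1. At VILI 6 hours every gene overlapped its neighbour in the order of means.

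**Figure D1:**
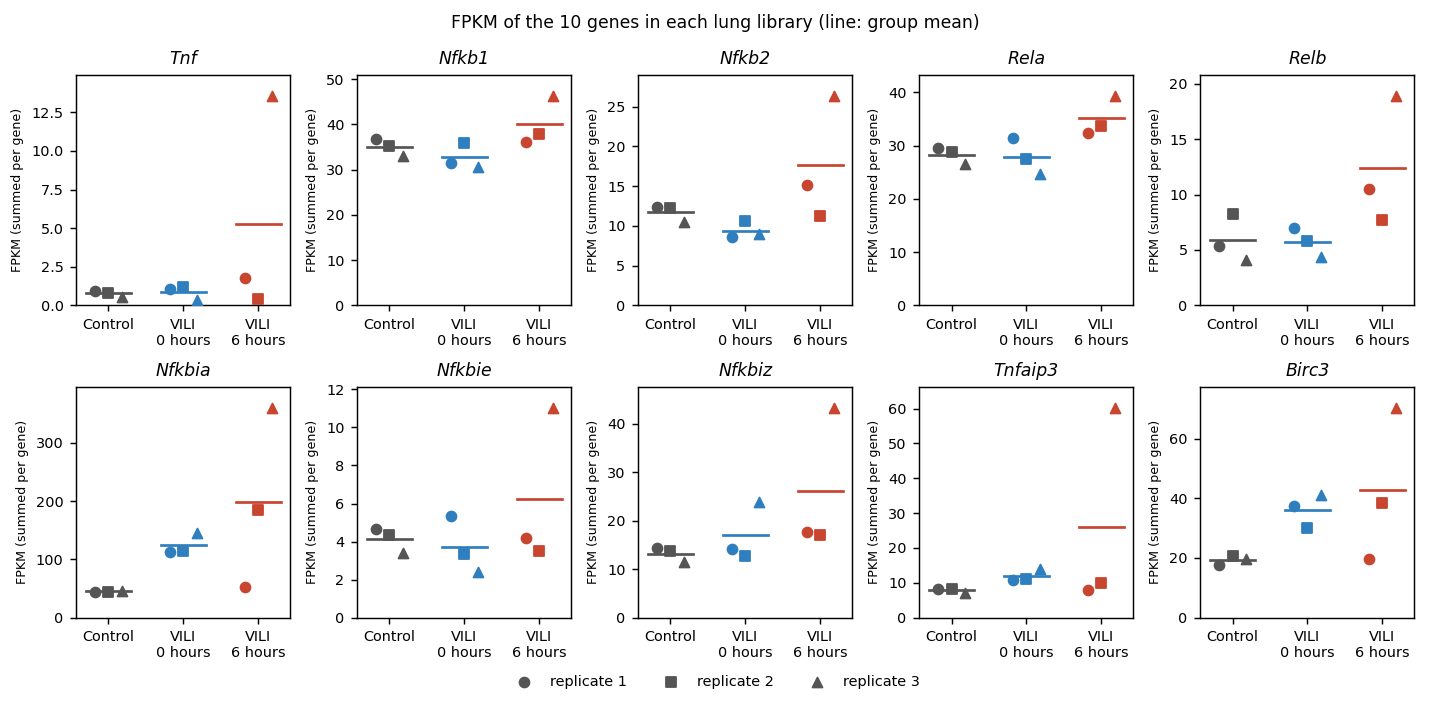
FPKM of each of the 10 genes (vertical axes from 0, one scale per gene) in the 3 libraries of each group; symbols give the replicate and lines the group mean. VILI 6 hours replicate 3 is the highest of the 9 libraries in all 10 panels, and in the Nfkbia panel the 3 VILI 0 hours libraries (112.5 to 145.7 FPKM) lie above the 3 controls (44.5 to 46.5 FPKM).

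Tnf (chr17:35199381-35202007, minus strand, GRCm38), the ligand at the head of the pathway, was listed in control at 0.960, 0.829 and 0.522 FPKM. In VILI 0 hours it was 1.08, 1.17 and 0.369 FPKM, and in VILI 6 hours 1.79, 0.425 and 13.6 FPKM. The control and VILI 0 hours libraries overlapped, and at 6 hours a single library was far above all others while replicate 2 lay below the lowest control. Against control the log2 fold change was 0.06 ± 0.97 (SE, adjusted p = 0.981) at 0 hours and 1.49 ± 0.97 (adjusted p = 0.396) at 6 hours, and neither passed the unadjusted test. Leaving out VILI 6 hours replicate 3 gave 0.229 at 6 hours. Leaving out replicate 2 gave 2.58, which passed the unadjusted test, so a call for Tnf depended on which library was kept. With a pseudocount of 0.01 FPKM in place of 0.1 FPKM the changes of Tnf were 0.055 and 1.54.

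Among the NF-kappaB subunits, Rela (chr19:5637483-5648130, plus strand) encodes p65, the activating subunit of the classical dimer. Its levels were 29.6, 28.7 and 26.5 FPKM in control lung, 31.3, 27.6 and 24.6 FPKM in VILI 0 hours, and 32.3, 33.7 and 39.4 FPKM in VILI 6 hours. All 3 VILI 6 hours libraries exceeded every control and every VILI 0 hours library. At 6 hours Rela was higher than control by 0.31 ± 0.12 (log2, SE; adjusted p = 0.195) and higher than at 0 hours by 0.34 ± 0.12 (adjusted p = 0.407), both past the unadjusted test. Both missed it without VILI 6 hours replicate 3 (0.223 and 0.251). The first also missed it without control replicate 2 or 3 (0.320 and 0.262 in log2) and when eBayes was run without a trend (limma adjusted p = 0.265). The second also missed it without VILI 0 hours replicate 3 (0.252 in log2) and with library medians set equal (0.348 in log2). The change against control at 0 hours was -0.03 ± 0.12, and it turned to 0.0865 when library medians were set equal.

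Nfkb1 (chr3:135584655-135691547, minus strand) encodes p105, the precursor of the p50 subunit that pairs with p65. It was 36.8, 35.3 and 33.1 FPKM in control lung, 31.5, 35.9 and 30.7 FPKM in VILI 0 hours, and 36.1, 37.9 and 46.4 FPKM in VILI 6 hours. The 3 groups lay close together, and only VILI 6 hours and VILI 0 hours were separated. That difference was 0.29 ± 0.12 (log2, SE; adjusted p = 0.458). It passed the unadjusted test, but not with library medians set equal (0.302 in log2) or without VILI 6 hours replicate 3 (0.181 in log2). Nor did it pass without VILI 0 hours replicate 1 or 3 (0.264 and 0.245 in log2) or control replicate 2 (0.289 in log2). From the top row of the gene the difference was 0.108 (log2) and missed the test. It also missed it in the 6 libraries compared alone (limma adjusted p = 0.802) and without a trend (limma adjusted p = 0.551). Nfkb1 overlaps Gm43430 on its own strand. Against control, Nfkb1 gave -0.10 ± 0.12 at 0 hours and 0.19 ± 0.12 at 6 hours, neither past the test, and the former was 0.0133 with equal medians.

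Nfkb2 (chr19:46304320-46312385, plus strand) encodes p100, the precursor of p52, and Relb (chr7:19606217-19629438, minus strand) its partner in the alternative pathway. Nfkb2 was 12.4, 12.3 and 10.5 FPKM in control lung, 8.61, 10.6 and 8.93 FPKM in VILI 0 hours, and 15.2, 11.2 and 26.4 FPKM in VILI 6 hours. Its levels in VILI 0 hours reached just into the bottom of the control range, and all 3 VILI 6 hours libraries stood above them. The difference between the VILI groups was 0.82 ± 0.26 (log2, SE; adjusted p = 0.367) and passed the unadjusted test. It also passed at 0.479 (log2) without VILI 6 hours replicate 3, but not from its top row alone (0.802 in log2). Against control Nfkb2 gave 0.50 ± 0.26 at 6 hours and -0.32 ± 0.26 at 0 hours, neither of which did. The 6-hour change was 0.774 and passed without VILI 6 hours replicate 2, and the 0-hour change passed as lower in a fit of the 6 libraries compared alone (limma adjusted p = 0.133). Nfkb2 overlaps Psd and a non-coding gene on the opposite strand, and whether the counting used strand was not settled from the sources.

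Relb was 5.36, 8.26 and 4.11 FPKM in control lung, 6.95, 5.80 and 4.34 FPKM in VILI 0 hours, and 10.5, 7.72 and 19.0 FPKM in VILI 6 hours. Replicates 1 and 3 of VILI 6 hours were above all controls, while replicate 2 fell within the control range. At 6 hours Relb was higher than control by 1.01 ± 0.35 (log2, SE; adjusted p = 0.166) and higher than at 0 hours by 1.03 ± 0.35 (adjusted p = 0.393), both past the unadjusted test. Without VILI 6 hours replicate 3 these became 0.656 and 0.675, neither past it. The first also missed it without control replicate 3 (0.784), and the second without VILI 0 hours replicate 3 (0.851) and from the top row alone (1.16). At 0 hours Relb gave -0.02 ± 0.35 against control, and 0.095 with equal medians. From its top row alone Relb gave 3.52 at 0 hours and 4.68 at 6 hours against control, both past the unadjusted test and neither past adjustment (limma adjusted p = 0.336 and 0.183). The control values of Relb rested on different rows of the table, since the row that held most of its signal elsewhere was listed at 0 in control replicates 1 and 3.

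The promoters of Nfkbia and Nfkb2 are shown because both genes passed the unadjusted test and hold the 10-base kappaB consensus, the site that NF-kappaB dimers bind, in the 250 bases before the RefSeq start of transcription (GRCm38.p6). Each sequence runs 5′ to 3′ on the strand of its gene, chr12:55492648-55492897 on the minus strand for Nfkbia and chr19:46304487-46304736 on the plus strand for Nfkb2, and capitals mark the matches, searched on both strands.
Nfkbia: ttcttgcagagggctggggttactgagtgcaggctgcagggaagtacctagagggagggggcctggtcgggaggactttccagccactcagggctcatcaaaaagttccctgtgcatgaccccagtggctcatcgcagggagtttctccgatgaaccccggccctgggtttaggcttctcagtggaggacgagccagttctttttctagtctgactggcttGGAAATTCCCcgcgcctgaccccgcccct
Nfkb2: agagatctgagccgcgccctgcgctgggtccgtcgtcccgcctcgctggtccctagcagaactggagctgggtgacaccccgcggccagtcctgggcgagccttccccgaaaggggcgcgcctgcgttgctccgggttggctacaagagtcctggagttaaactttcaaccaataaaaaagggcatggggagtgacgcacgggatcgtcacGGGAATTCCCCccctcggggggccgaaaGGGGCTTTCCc
The Nfkbia window held 1 match that begins 29 bases before the start. The first of the 3 Nfkb2 windows held 3 matches, at 39, 38 and 11 bases, of which the first 2 overlap with a shift of 1 base. The other windows of Nfkb2, not shown, held 1 match each, at 236 and 225 bases before their starts. Of 7 members in the RefSeq table, 4 had a match (Nfkbia, Nfkb2, Tnfaip3 and Nfkbie), and Tnf, Rela and Birc3 had none in these windows. Of all 32851 windows 7.25% held a match, and so did 8.23% of the 27025 genes listed. A match describes the letters of the window and not a bound site. Nfkb1, Relb and Nfkbiz had no entry in the set of RefSeq windows used here and were not searched.

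Nfkbia (chr12:55489410-55492647, minus strand), the classical IkappaB that returns p65 to the cytoplasm, had the largest change of the 10 genes at 0 hours. Its levels were 44.7, 44.5 and 46.5 FPKM in control lung, 112.5, 113.6 and 145.7 FPKM in VILI 0 hours, and 52.5, 184.8 and 360.4 FPKM in VILI 6 hours. Every ventilated library was above every control, but VILI 6 hours replicate 1 stood only 1.16-fold above the control mean while replicates 2 and 3 stood 4.08-fold and 7.96-fold above it. Against control the log2 fold change was 1.44 ± 0.54 (SE, adjusted p = 0.238) at 0 hours and 1.74 ± 0.54 (adjusted p = 0.139) at 6 hours, both past the unadjusted test. With the library medians set equal they were 1.56 and 1.87, and the second was 1.12 without VILI 6 hours replicate 3. Without VILI 6 hours replicate 1, Nfkbia passed adjustment at both times, with 2.51 at 6 hours (limma adjusted p = 0.00761 and 0.000568), and in a fit of the 6 libraries compared alone it passed at 0 hours (0.000923) but not at 6 hours (0.236). With 1 library fewer, the 0-hour change missed the unadjusted test without any 1 of the 3 controls (1.43 to 1.46) and without VILI 0 hours replicate 3 (1.32). Within VILI 6 hours the neutrophil marker sum, like Nfkbia, was lowest in replicate 1 and highest in replicate 3. Within VILI 0 hours it was highest in replicate 2 and Nfkbia in replicate 3. The part of neutrophils in this and in the other members' results was not tested.

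Nfkbie (chr17:45555703-45563169, plus strand), which encodes IkappaB epsilon, was 4.64, 4.37 and 3.42 FPKM in control lung, 5.34, 3.37 and 2.39 FPKM in VILI 0 hours, and 4.16, 3.48 and 11.04 FPKM in VILI 6 hours. The groups overlapped, with 1 high library at 6 hours. Its log2 fold change was -0.22 ± 0.42 at 0 hours and 0.40 ± 0.42 at 6 hours (adjusted p = 0.835 and 0.603), and the latter turned to -0.107 without replicate 3.

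Nfkbiz (chr16:55811375-55838899, minus strand) encodes IkappaB zeta, a nuclear member of the family that acts on a set of secondary response genes. It was 14.4, 13.7 and 11.4 FPKM in control lung, 14.2, 12.8 and 23.8 FPKM in VILI 0 hours, and 17.7, 17.1 and 43.3 FPKM in VILI 6 hours. All VILI 6 hours libraries were above the controls, and at 0 hours only replicate 3 was. At 6 hours Nfkbiz was higher than control by 0.84 ± 0.35 (log2, SE; adjusted p = 0.223), past the unadjusted test, but gave 0.408 without VILI 6 hours replicate 3, which was not. It also missed the test without any 1 control (0.743 to 0.914) and without VILI 0 hours replicate 1 (0.844), and when eBayes was run without a trend (limma adjusted p = 0.277). At 0 hours it gave 0.31 ± 0.35 (adjusted p = 0.702).

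Tnfaip3 (chr10:19000910-19015657, minus strand) encodes A20, a ubiquitin-editing enzyme that shuts off signalling upstream of IKK. It was 8.07, 8.32 and 7.13 FPKM in control lung, 10.9, 10.98 and 13.8 FPKM in VILI 0 hours, and 7.94, 9.97 and 60.2 FPKM in VILI 6 hours. All VILI 0 hours libraries exceeded the controls, whereas at 6 hours replicate 1 lay within the control range and replicate 3 was 7.68-fold above the control mean. The log2 fold change at 0 hours was 0.59 ± 0.61 (SE, adjusted p = 0.676) and did not pass the unadjusted test. This SE came from a spread shared by all 9 libraries, and in a fit of the 6 libraries compared alone the same change had an adjusted p = 0.0269. At 6 hours Tnfaip3 gave 1.098 ± 0.61 (adjusted p = 0.327), or 0.183 without replicate 3 and 1.64 without replicate 1, of which only the last passed the unadjusted test.

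Birc3 (chr9:7848699-7873186, minus strand), which encodes the ubiquitin ligase cIAP2 of the TNF receptor complex, was 17.7, 20.7 and 19.8 FPKM in control lung, 37.3, 30.1 and 41.0 FPKM in VILI 0 hours, and 19.7, 38.5 and 70.4 FPKM in VILI 6 hours. The VILI 0 hours libraries were all above the controls, and VILI 6 hours replicate 1 again fell among the controls. Birc3 was higher than control by 0.89 ± 0.37 (log2, SE; adjusted p = 0.275) at 0 hours and by 0.96 ± 0.37 (adjusted p = 0.193) at 6 hours, both past the unadjusted test. Without VILI 6 hours replicate 1 both passed adjustment (limma adjusted p = 0.0395 and 0.00515). Without replicate 3 the 6-hour change was 0.509 and did not pass the unadjusted test, nor did it without VILI 6 hours replicate 2 (0.943) or control replicate 1 or 3 (0.894 and 0.975). The 0-hour change missed it without any 1 control (0.821 to 0.933), VILI 0 hours replicate 1 or 3 (0.856 and 0.789) or VILI 6 hours replicate 2 (0.886), and when eBayes was run without a trend (limma adjusted p = 0.341). In a fit of the 6 libraries compared alone it passed adjustment (limma adjusted p = 0.00793). Its paralog and neighbour Birc2, which encodes cIAP1, gave 0.25 ± 0.17 at 0 hours and 0.14 ± 0.17 at 6 hours (adjusted p = 0.508 and 0.668).

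**Figure D2:**
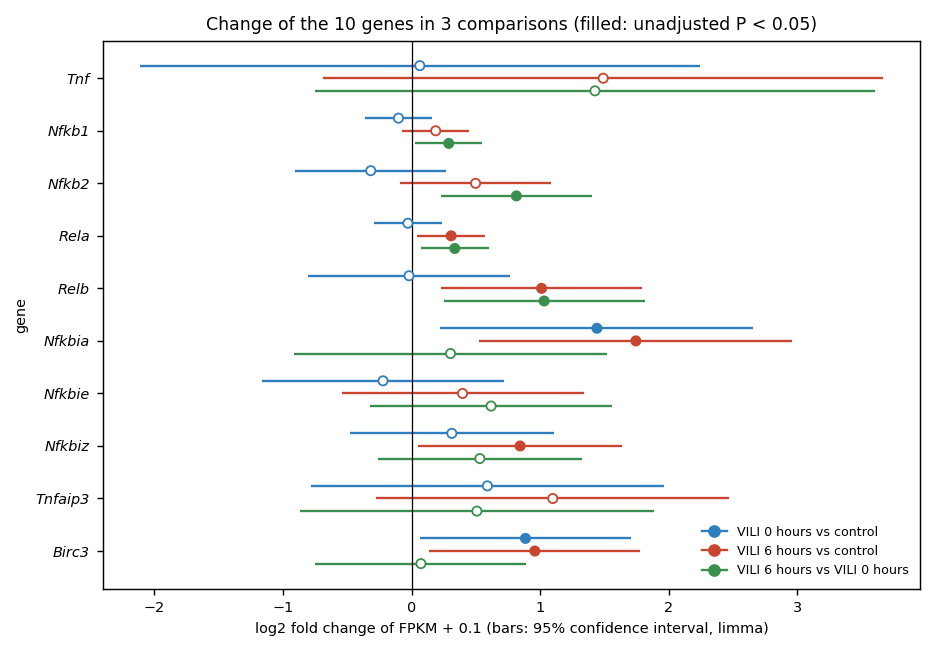
Log2 fold change of FPKM + 0.1 for the 10 genes in the comparison of each VILI group with control and of the VILI groups with each other, with 95% confidence intervals from limma; filled points have an unadjusted P under 0.05. Filled points at 0 hours are Nfkbia (1.44) and Birc3 (0.89), and the intervals of Tnf are the widest.

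Of the 10 genes, 2 were higher and 0 lower at 0 hours than in control by the unadjusted test, where 6.81% of all genes tested were called higher and 9.35% lower. After adjustment no member was called, beside 0.284% of all genes. Nfkbia, Tnfaip3 and Birc3 were higher with no overlap of the groups, as were 12.0% of all genes. The median log2 fold change of the members was 0.02, against -0.07 over all genes. At 6 hours 5 members were higher and 0 lower, beside 8.17% higher and 12.2% lower of all genes, and again no member was called after adjustment, beside 0.702%. Rela, Nfkbia and Nfkbiz were higher with no overlap, beside 9.64% of all genes, and the members' median was 0.90, against -0.09 over all genes. Between the VILI groups 4 members were higher at 6 hours and 0 lower, beside 5.06% and 4.94% of all genes. In that comparison limma called no gene after adjustment (0.00%), although 1938 genes had an unadjusted P under 0.05. The 4 subunit genes were higher with no overlap, beside 6.25% of all genes, and the members' median was 0.52. The 3 comparisons share libraries and are not independent of each other. With 3 against 3 libraries, the exact two-sided permutation test of 1 gene cannot give a p under 0.1, which all non-overlapping members reached.

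The median of all genes differed from control by -0.115 (log2) at 0 hours and -0.127 at 6 hours. Of the genes called, 42.1% were higher than control at 0 hours and 40.1% at 6 hours, and these shares were 61.2% and 58.1% with the library medians set equal. The calls of members against control were the same 2 and 5 in number under that scaling. Of the 4 subunit genes called between the VILI groups, Nfkb2 and Relb passed the unadjusted test under it and Nfkb1 and Rela did not.

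**Figure D3:**
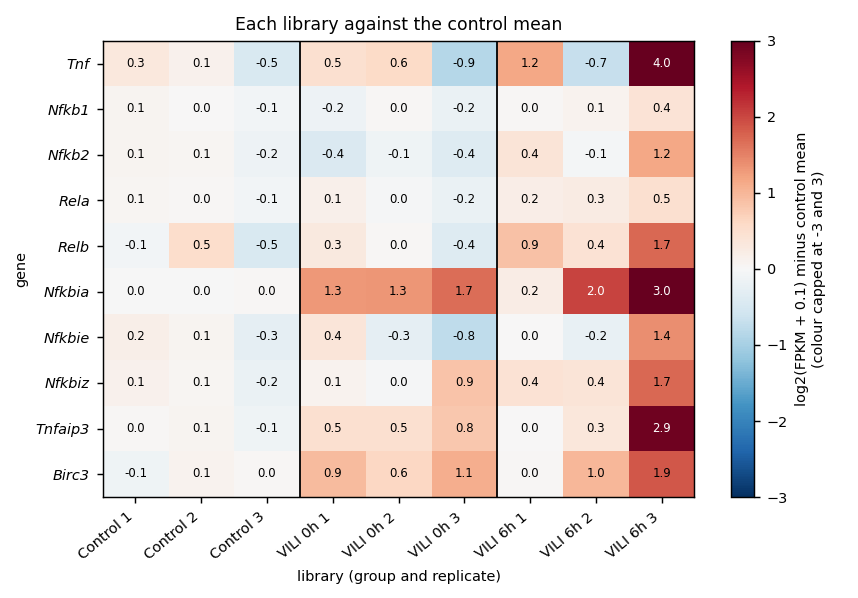
Log2(FPKM + 0.1) of each gene (rows) in each library (columns) minus its control mean; numbers in the cells give the difference and colour is capped at 3 in either direction. The column of VILI 6 hours replicate 3 is positive for all 10 genes, while replicate 1 of that group is near 0 for Nfkbia, Tnfaip3 and Birc3.

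Library by library, all 10 genes were above their highest control in VILI 6 hours replicate 3, with a median of 1.72 (log2) above the control mean. In that library 28.2% of all genes tested exceeded their highest control, and in the other 5 ventilated libraries 26.9% to 35.1% did. In replicates 1 and 2 of VILI 6 hours 6 of the 10 genes did so, with medians of 0.20 and 0.30, but the genes were not the same ones. Tnf, Nfkb2 and Relb exceeded the controls in replicate 1 but not 2, and Nfkb1, Tnfaip3 and Birc3 in replicate 2 but not 1, with Rela, Nfkbia and Nfkbiz in both. In VILI 0 hours 6, 4 and 4 genes exceeded the controls, and Nfkbia, Tnfaip3 and Birc3 were among them in all 3 libraries. VILI 0 hours replicate 3 had the highest Nfkbia of its group and also 5 of the 10 genes below their lowest control (Tnf, Nfkb1, Nfkb2, Rela and Nfkbie), beside 42.0% of all genes tested in that library.

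Within VILI 6 hours the spread was widest for Tnf. Its highest library exceeded its lowest by 32.0-fold, against 7.59-fold for Tnfaip3, 6.87-fold for Nfkbia, 3.57-fold for Birc3, 3.17-fold for Nfkbie and 2.53-fold for Nfkbiz. For the subunit genes the corresponding ratio was 2.45-fold for Relb, 2.35-fold for Nfkb2, 1.29-fold for Nfkb1 and 1.22-fold for Rela. In control the ratio ranged from 1.04-fold (Nfkbia) to 2.01-fold (Relb).

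The genes most like 3 of the members were sought by Pearson correlation of log2(FPKM + 0.1) over the 9 libraries among 14107 genes with a mean of at least 1 FPKM. For Tnf they were Vnn3 (r = 0.988), Bcl2a1b (0.957) and Psme1 (0.947), for Nfkb2 Smpdl3b (0.972), Trip12 (0.971) and C1qc (0.969), and for Nfkbia Il18rap (0.995), Tmc7 (0.990) and Serpina3c (0.990). These values describe likeness only. All points share the same libraries, and VILI 6 hours replicate 3 is the highest of them for each of the 3 members.

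The rest of the pathway was followed through 55 other genes in 6 lists, all of which were tested. At 0 hours 4 were higher than control and 3 lower, close to the 6.81% and 9.35% of all genes called. The count of 7 became 4 without control replicate 1 or 2, 11 without VILI 6 hours replicate 1 and 12 without VILI 6 hours replicate 3. All 4 higher genes were NF-kappaB targets, namely Il1b (3.14 ± 0.64, log2, SE; adjusted p = 0.0757), the anti-apoptotic Bcl2l1 (1.85 ± 0.43), Gadd45b (0.66 ± 0.20) and the chemokine Cxcl2 (3.31 ± 1.41). In the same libraries the 8 neutrophil markers were higher than control with a median of 3.71 (log2), and their part in the values of Il1b and the other targets was not tested. The lower ones were the target Csf1 (-0.55 ± 0.23), the receptor Cd40 (-0.79 ± 0.17, adjusted p = 0.0757) and the ligand Lta (-0.98 ± 0.41) of the alternative pathway. None of the 9 TNF receptors and adaptors, 12 IKK activation genes, 4 other NF-kappaB and IkappaB genes or 7 other negative regulators passed at 0 hours. The lowest P in those lists belonged to Tnfrsf1a (0.31 ± 0.15), Tab3 (-0.23 ± 0.15), Bcl3 (0.64 ± 0.38) and Otulin (0.28 ± 0.14).

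At 6 hours 16 of the 55 were higher than control and 3 lower, beside 8.17% and 12.2% of all genes. These 19 became 14 without VILI 6 hours replicate 3 and 12 without control replicate 3. Beside the members Relb and Nfkbiz, their family member Bcl3, a nuclear IkappaB that binds p50 and p52 dimers, was higher by 1.82 ± 0.38 (log2, SE; adjusted p = 0.0656), and Nfkbib by 0.75 ± 0.27. Both TNF receptor genes were higher, Tnfrsf1a by 0.65 ± 0.15 (adjusted p = 0.0743) and Tnfrsf1b by 0.70 ± 0.25, as was the adaptor kinase Ripk1 (0.49 ± 0.16). Of the IKK activation genes only Map3k14, the NIK kinase of the alternative pathway, passed (0.46 ± 0.16), and of the other negative regulators only Tnip2 (0.59 ± 0.18). Among the alternative pathway ligands and receptors Ltbr was higher (0.40 ± 0.12), while Ltb (-0.81 ± 0.23), Cd40lg (-0.75 ± 0.33) and Tnfrsf13c (-0.96 ± 0.41) were lower. Ltb and Tnfrsf13c are also expressed by B cells, whose 4 markers summed to 41.1 to 54.6 FPKM in control and 11.4 to 34.3 FPKM at 6 hours, and the part of this in the result was not tested. Of 16 target genes 8 were higher, led in P by Ccl2 (2.72 ± 0.60, adjusted p = 0.0733). For Cxcl2, Il6, Ccl2 and Sele all 3 VILI 6 hours libraries were above every control, but replicate 3 carried much of the group mean. Cxcl2 was 2.30, 2.88 and 150.1 FPKM in the 3 VILI 6 hours libraries, against 0.0463 to 0.122 FPKM in control. Il6 was 0.306, 1.58 and 19.3 FPKM, against 0.138 to 0.277 FPKM in control. Ccl2 was 2.35, 5.27 and 13.6 FPKM, against 0.609 to 0.895 FPKM in control. Sele was 0.374, 1.13 and 3.72 FPKM, against 0.1835 to 0.348 FPKM in control. The neutrophil markers had a median of 4.19 (log2) at 6 hours against control, and their sum was also highest in replicate 3. Their part in the target genes was not tested there either.

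Between the VILI groups 14 of the 55 were higher at 6 hours and 2 lower, beside 5.06% and 4.94% of all genes. These 16 became 13 without VILI 6 hours replicate 3, 10 without VILI 0 hours replicate 1 or with equal medians, and 8 without VILI 0 hours replicate 3. The 6 targets higher at 6 hours were the chemokines Ccl2 (3.48 ± 0.60) and Cxcl1, the adhesion molecules Icam1 and Sele, the cytokine Il6 and the mitochondrial enzyme Sod2. Bcl3 (1.18 ± 0.38), Tnip1 (0.77 ± 0.30), Tnip2 (0.50 ± 0.18), Tnfrsf1a (0.34 ± 0.15), Tnfrsf1b (0.69 ± 0.25), Map3k14 (0.36 ± 0.16), Ltbr (0.28 ± 0.12) and Cd40 (0.58 ± 0.17) were also higher. Ltb (-0.66 ± 0.23) and Cd40lg (-0.89 ± 0.33) were lower. None of the 55 passed adjustment in any of the 3 comparisons by limma. The median over the 55 was -0.03, 0.14 and 0.14 in the 3 comparisons, against -0.07, -0.09 and -0.02 over all genes.

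**Figure D4:**
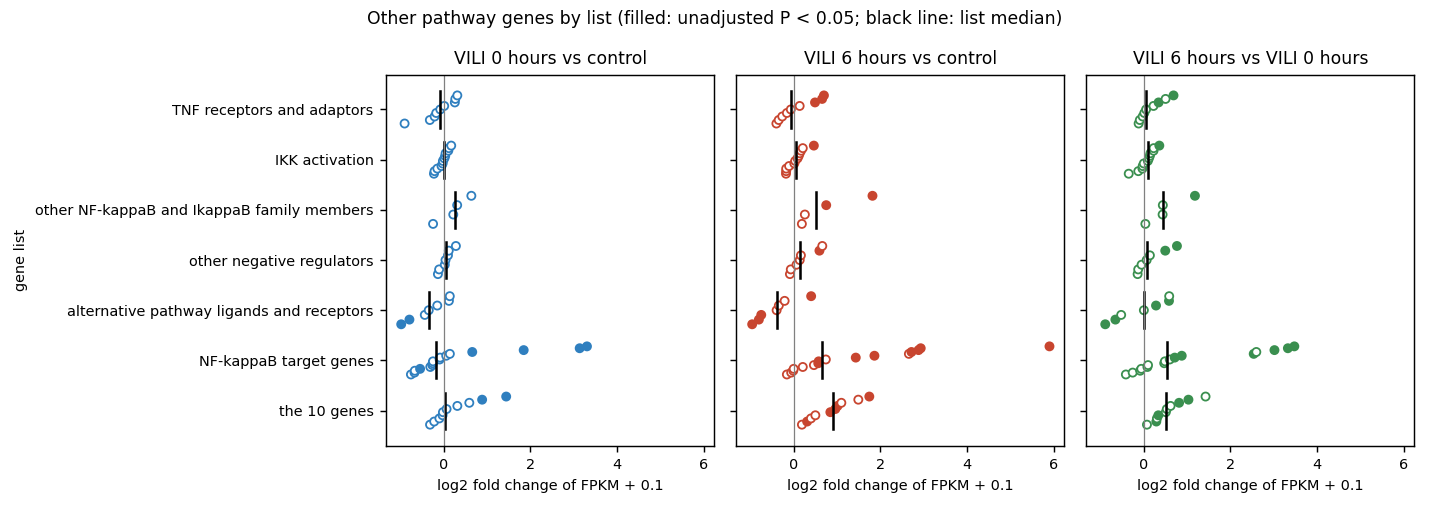
Log2 fold change of FPKM + 0.1 of the 55 other pathway genes by list, with the 10 genes in the bottom row, in the 3 comparisons; filled points have an unadjusted P under 0.05 and black lines mark list medians. The median of the 10 genes is 0.02, 0.90 and 0.52 from left to right. The highest point, Cxcl2 at 6 hours against control (5.90), is a target gene. It had 150.1 FPKM in replicate 3 and 2.30 and 2.88 FPKM in replicates 1 and 2, against 0.0463 to 0.122 FPKM in control.

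Markers of other cells gave fewer calls against control than the 8 of 8 of neutrophils. Of 4 monocyte markers 0 were higher at 0 hours and 1 (Ly6c2) at 6 hours, with sums of 45.2 to 49.9 FPKM in control lung, 41.0 to 91.1 FPKM in VILI 0 hours and 62.7 to 88.2 FPKM in VILI 6 hours. Alveolar macrophage markers summed to 240.2 to 292.0, 329.9 to 422.6 and 246.3 to 628.8 FPKM, and Chil3 alone held 527.9 of the highest sum, that of VILI 6 hours replicate 1. In the same library Car4, at 63.2 FPKM, lay below its controls (71.7 to 77.0 FPKM), so the list did not move as one. Of these 6 markers Siglecf and Mrc1 were higher than control at 0 hours, and at 6 hours Mrc1 was higher and Car4 lower. B cell markers summed to 17.5 to 56.0 FPKM in VILI 0 hours, and among them Ms4a1 was lower than control at both times and Cd79b at 6 hours, where the median of the list was -1.37 (log2). The 3 erythroid markers summed to 3176 to 3558 FPKM in VILI 0 hours and 311, 2216 and 2456 FPKM in VILI 6 hours, with 0 called against control at either time. Between the VILI groups no neutrophil marker was called by limma (median 0.16), nor was any monocyte marker. In that comparison 2 erythroid (Hba-a1 and Hbb-bs), 2 alveolar macrophage (Siglecf and Car4) and 1 B cell marker (Ms4a1) were lower at 6 hours. T cell markers summed to 14.4 to 19.7, 13.4 to 25.8 and 7.15 to 19.3 FPKM, and cardiac muscle markers to 115.3 to 134.6, 111.5 to 238.9 and 119.4 to 148.3 FPKM, with 0 of either list called in any comparison. The part of these cells in the levels of the 10 genes was not tested.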

How the data were processed

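The deposited table gives FPKM per transcript for 9 lung libraries, in 60108 rows. To make the FPKM values, the authors filtered the reads for adapters, undetermined bases and low quality, mapped them to the genome with TopHat, and built transcripts by Scripture and by Cufflinks before quantification in Cuffdiff. The submitters' processing notes name GRCm38, Bowtie2 2.0.6, TopHat2 2.0.9 and Cuffdiff 2.1.1. The sample records and the published methods name different library kits and sequencers, so strand use was not settled. The deposited values hold no read numbers (column sums 366360 to 388459 FPKM). Reads per library are listed in the study's supplement and were not used here, so no counting interval is given and precision rests on the spread of 3 libraries, each from 1 mouse.

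FPKM was summed per gene. Of 23713 Ensembl IDs, 23503 matched GENCODE M21 (GRCm38), the source of names. Genes with a mean of at least 0.1 FPKM (19378) were fitted as log2(FPKM + 0.1) by the functions lmFit and eBayes (trend on) of limma 3.58.1, R 4.3.3, group as the only factor. Genes were called at an unadjusted P under 0.05, which the study also used, and by the Benjamini-Hochberg adjusted p. The procedure was tested on simulated data. The members, gene lists, marker lists and tests were chosen with earlier results of these data known. Named beside the members were the gene of lowest P per list and comparison (mean of at least 1 FPKM), every gene behind a count of 5 or fewer, the 3 genes most like Tnf, Nfkb2 and Nfkbia, and promoters of members with P under 0.05 and a kappaB match. Promoters came from RefSeq. Alternatives were other pseudocounts, filters, scaling, libraries, a replicate block, no trend, the top row per gene, and leaving out each library. Python 3.11.15 with pandas 2.3.3 and matplotlib 3.10.9 drew the plots.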

Additional observations from a re-analysis of the deposited data

Results flagged for a closer look

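In 4 of the 10 genes the change against control differed between the 2 times after ventilation, tested as the difference between the VILI groups in the fit of all 9 libraries, where 5.06% of all genes tested were higher at 6 hours and 4.94% lower. The change at 6 hours exceeded that at 0 hours by 1.03 (log2) for Relb, 0.82 for Nfkb2, 0.34 for Rela and 0.29 for Nfkb1, each past the unadjusted test. All 3 libraries at 6 hours were above all 3 at 0 hours for each of these subunit genes. None passed adjustment (limma adjusted p = 0.393, 0.367, 0.407 and 0.458). Without VILI 6 hours replicate 3 the differences for Relb, Rela and Nfkb1 were 0.675, 0.251 and 0.181, none past the unadjusted test, while Nfkb2 gave 0.479 and passed it. With library medians set equal, Nfkb1 (0.302) and Rela (0.348) did not pass it and Nfkb2 and Relb did. The feedback genes Nfkbia, Tnfaip3 and Birc3 gave 0.30, 0.51 and 0.07 in the same comparison, none past the test (adjusted p = 0.896, 0.827 and 0.964).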

How the results depend on the processing

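Over the 30 changes of the 10 genes and all alternatives, 470 of 540 values kept their direction and side of the unadjusted threshold, 44 lost a call with the direction kept, 9 gained one with the direction kept and 17 changed sign, among them Relb at 3.52 and Tnfaip3 at -0.407, which also gained a call. Leaving out each library in turn, members called ranged from 0 to 3 at 0 hours vs control, 1 to 6 at 6 hours vs control and 1 to 6 at 6 hours vs 0 hours. The corresponding ranges were 1978 to 4495, 2540 to 7540 and 1406 to 4353 genes called, 4 to 12, 12 to 24 and 8 to 20 pathway genes, and 1 to 1344, 1 to 4526 and 0 to 362 genes after adjustment. The highest of each came without VILI 6 hours replicate 1, except for members (3) and pathway genes (12) at 0 hours, without replicate 3, and a tie of 6 members at 6 hours vs control without replicate 2.

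At 0 hours vs control, the 6 libraries compared alone gave 4 members (Nfkb2 among them, as lower), 5076 genes, 1714 genes after adjustment and 16 pathway genes. There eBayes without a trend gave 1 member and 20 adjusted genes, and adjusted genes numbered 15 with a pseudocount of 1, 1 with no filter and 7 with the top row per gene. At 6 hours vs control, no trend gave 3 members and 41 adjusted genes, and adjusted genes numbered 75 with no filter, 38 in the 6 libraries and 11 with the top row. At 6 hours vs 0 hours, equal medians gave 2 members and 10 pathway genes, the top row 1 member, the 6 libraries 1196 genes and 1 adjusted gene, and no trend 2 adjusted genes.

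Deviations from group means gave correlations of -0.221 to 0.0175 between same-numbered libraries and -0.122 to 0.167 between differently numbered ones. With 3 libraries per group these values cannot decide whether replicate numbers pair the samples. A replicate block gave 2, 4 and 3 members in the 3 comparisons, without Rela at 6 hours vs control (limma adjusted p = 0.278) and Nfkb1 between the VILI groups (0.591), with 10, 43 and 0 adjusted genes.

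At 0 hours vs control, equal medians gave 0.0133 for Nfkb1, 0.0865 for Rela and 0.095 for Relb, and the top row 3.52 for Relb, past the unadjusted test, whose first row was at 0 in 2 controls. At 6 hours vs control the top row gave 4.68 for Relb. Leaving out libraries moved Tnf from -0.191 to 0.525, Rela from -0.117 to 0.0564, Relb from -0.247 to 0.247 and Nfkbie from -0.517 to 0.0448 at 0 hours, Nfkbie from -0.107 to 0.712 at 6 hours, and, between the VILI groups, Nfkbia from -0.321 to 1.07, Tnfaip3 from -0.407 to 1.05 and Birc3 from -0.377 to 0.538. Tnfaip3 at -0.407, without VILI 6 hours replicate 3, was lower at 6 than at 0 hours by the unadjusted test. The cause of these changes was not tested.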

Other observations

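Rows of the table that belong to 1 gene are separate transcripts without names of their own, and the rows of a gene need not share a pattern. Of the 2 rows of Nfkb2, the first held 4.46 to 6.57 FPKM in control lung, 4.15 to 6.52 FPKM in VILI 0 hours, and 7.50, 5.55 and 17.9 FPKM in VILI 6 hours. The second row held 5.69 to 7.29 FPKM in control and 3.54 to 4.78 FPKM in VILI 0 hours, all 3 below the controls, and 7.69, 5.69 and 8.53 FPKM in VILI 6 hours. The lower Nfkb2 level at 0 hours was thus in the second row and the high value of VILI 6 hours replicate 3 mostly in the first.

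For Relb the first row held 0, 7.60 and 0 FPKM in control lung, against 3.34 to 17.9 FPKM in the ventilated libraries. The fourth row held 4.77, 0 and 3.66 FPKM in control lung, against 0 to 0.250 FPKM in the others. The values reported for Relb are sums over its 5 rows. For Tnfaip3 the first row carried 47.6 of the 60.2 FPKM of VILI 6 hours replicate 3, and its share of the gene was 74.4% over all libraries. In Birc3 the fourth row, with 70.3% of the gene, held 12.1 to 13.8 FPKM in control lung, 21.5 to 25.3 FPKM in VILI 0 hours, and 14.5, 27.1 and 55.4 FPKM in VILI 6 hours.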
